A study of Mus musculus with 24 samples.

Results

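The genes described here are 10 components and targets of the transcription factor NF-kB, chosen by their symbols out of 32728 genes in the deposited count tables. They are the subunit genes Nfkb1, Nfkb2, Rela and Relb, the inhibitor genes Nfkbia and Nfkbie, the feedback regulator genes Tnfaip3 and Birc3, and the adhesion molecule genes Icam1 and Vcam1. RNA was sequenced from cultured mouse neurons and astrocytes in 24 libraries that form 8 groups of 3, each a combination of genotype, treatment and cell type. They were Perk KO neurons treated with tunicamycin (TM), Perk KO control neurons, WT neurons treated with TM and WT control neurons, and the same 4 groups of astrocytes. Cells of all groups came from PerkloxP/loxP mice and had been transduced in culture with a lentivirus, which carried active Cre-recombinase in Perk KO cells and the inactive ΔCre in WT cells. The WT cells are therefore floxed and virus-treated as well, and the share of cells that the virus reached is not given in the sources used here. TM blocks N-linked glycosylation and so causes stress of the endoplasmic reticulum (ER). It was given at 5 µg/mL on day 14 in culture, for 24 h by the treatment protocol and for 20 to 24 h by the series' design text, while control cells received DMSO.

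NF-kB is a family of dimers of Rel proteins that inhibitor proteins (IkB proteins) hold in the cytoplasm. Kinases of the IKK complex mark the inhibitors for degradation, the dimers enter the nucleus and bind kappa B motifs, and among the genes they turn on are those of their own inhibitors. In astrocytes the pathway is known for switching on inflammatory and adhesion genes. PERK, the product of Eif2ak3 (called Perk in the labels), is an ER stress sensor that phosphorylates eIF2alpha and lowers translation, and loss of the short-lived IkB proteins under lowered translation is a known link from PERK to NF-kB. RNA was measured here, not protein, phosphorylation or nuclear NF-kB.

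The subunit genes lie on 3 chromosomes of GRCm38. Nfkb1 (chr3:135584655-135691547, minus strand) encodes p105, the precursor of p50, and Nfkb2 (chr19:46304737-46312090, plus strand) encodes p100, the precursor of p52. Rela (chr19:5637483-5648130, plus strand) encodes p65, the main activating subunit, and Relb (chr7:19606217-19629438, minus strand) encodes the partner of p52 in the noncanonical pathway. Of the inhibitors, Nfkbia (chr12:55489410-55492647, minus strand) encodes IkB-alpha and Nfkbie (chr17:45555716-45563169, plus strand) encodes IkB-epsilon. Tnfaip3 (chr10:19000910-19015657, minus strand) encodes A20, a ubiquitin-editing enzyme that dampens the signal upstream of IKK, and Birc3 (chr9:7848699-7873186, minus strand) encodes cIAP2, a ubiquitin ligase at TNF receptors. Icam1 (chr9:21015985-21028817, plus strand) and Vcam1 (chr3:116109949-116129688, minus strand) encode cell-surface proteins that integrins of leukocytes bind. All 10 are protein-coding in the deposited tables, and the coordinates are theirs.

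RefSeq promoter windows of GRCm38.p6, each running from 250 bases before a start to 50 after it, were given for 7 of the 10 genes and searched on both strands for the kappa B consensus. At least 1 match was found for 4 of the 7 genes, namely Nfkb2, Nfkbia, Nfkbie and Tnfaip3, and none in the windows of Rela, Birc3 and Icam1. Of all 32851 windows in the table, 8.46% held at least 1 match, and the first Nfkb2 window, with 3 matching positions of which 2 overlap, was among the 0.186% with 3 or more. With the looser motif GGGNNNNNCC, which 50.8% of all windows held, all 7 genes had a match. The 150 bases before the start are printed for Nfkb2, Nfkbia and Nfkbie, a subunit gene and both inhibitor genes, with the matches in capitals.
Nfkb2, chr19:46304587-46304736, plus strand: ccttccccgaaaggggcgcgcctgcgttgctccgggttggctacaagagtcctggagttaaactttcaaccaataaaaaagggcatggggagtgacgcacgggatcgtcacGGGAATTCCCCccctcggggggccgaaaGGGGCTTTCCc
Nfkbia, chr12:55492648-55492797, minus strand: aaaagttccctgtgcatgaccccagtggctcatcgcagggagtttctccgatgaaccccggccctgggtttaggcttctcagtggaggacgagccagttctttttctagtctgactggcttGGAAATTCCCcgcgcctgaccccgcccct
Nfkbie, chr17:45555550-45555699, plus strand: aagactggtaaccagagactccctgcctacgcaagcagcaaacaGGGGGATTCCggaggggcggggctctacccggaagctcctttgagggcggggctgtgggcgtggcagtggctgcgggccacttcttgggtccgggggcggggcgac
The first Nfkb2 match lay 39 bases before the start and the third 11 bases before it, the Nfkbia match 29 bases and the Nfkbie match 106 bases before theirs. In the first Tnfaip3 window the matches were GGGACACCCC and GGAAATCCCC, 125 and 12 bases before the start. A match describes letters in a window and does not show that a factor bound there.

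Libraries held 16 to 25.9 M counts assigned to genes. Eif2ak3, the targeted gene, fitted the labels in every comparison of genotypes: it averaged 12.5 ± 3.28 CPM in TM-treated KO neurons against 133 ± 7.63 CPM in TM-treated WT neurons, and 5.46 ± 0.345 against 37.1 ± 3.16 CPM in control neurons (SD, n = 3 each). In astrocytes it averaged 13.5 ± 2.15 CPM in KO against 87.3 ± 15.3 CPM in WT cultures under TM, and 6.75 ± 0.861 against 25.9 ± 1.62 CPM in control cultures. Summed levels of 12 neuron markers were 3176 to 7438 CPM in neuron cultures and 240 to 372 CPM in astrocyte cultures, so the neuron label fitted its markers. Summed levels of 12 astrocyte markers were 3521 to 3680 CPM in WT control neuron cultures and 2542 to 3788 CPM in WT control astrocyte cultures, so the neuron cultures held as much astrocyte marker RNA in sum. Single markers went both ways. The log2 fold change of neurons over astrocytes was 3.00 ± 0.19 (SE) for Aldoc, 2.81 ± 0.24 for Slc1a2 and 2.76 ± 0.29 for S100b. It was -2.45 ± 0.31 for Aqp4, -1.53 ± 0.16 for Sox9, -1.05 ± 0.14 for Gja1, -1.02 ± 0.11 for Aldh1l1 and -0.90 ± 0.14 for Fgfr3. Gfap (0.39 ± 0.22), Slc1a3 (0.22 ± 0.18) and Slc4a4 (0.05 ± 0.17) differed less. The sums moved with treatment and genotype. In neuron cultures they were 3542 to 4469 CPM in KO TM, 4524 to 4725 CPM in KO control and 991 to 1076 CPM in WT TM libraries. In astrocyte cultures they were 2119 to 2780 CPM in KO TM, 3430 to 4533 CPM in KO control and 690 to 775 CPM in WT TM libraries, with the marker Gjb6 at 0 in every library of both WT groups. In such bulk cultures fewer cells of a type and less RNA per cell cannot be told apart, and the part of these shifts in the results was not tested. The replicate numbers of the titles paired libraries in astrocytes, so that a fit with the number as a block is given there wherever it changed a call.

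All 10 genes were lower in neuron than in astrocyte cultures, and in none of them did the libraries of the WT control groups overlap, where 39.1% of all genes tested had every neuron library below every astrocyte library. Of all 15817 genes tested between WT control neurons and astrocytes, 35.8% were called higher and 35.2% lower, where called means a Benjamini-Hochberg adjusted p under 0.05 in edgeR's quasi-likelihood test over all genes tested. The log2 fold change of neurons over astrocytes ran from -2.28 ± 0.18 for Rela (SE, adjusted p = 3.89e-06) to -5.60 ± 0.27 for Birc3 (adjusted p = 2.13e-07), with a median of -3.85 over the 10 genes and -0.03 over all genes. Nfkb2, for example, had 8.87, 12.2 and 11 CPM in WT control neurons, against 212, 357 and 409 CPM in WT control astrocytes, a log2 fold change of -4.89 ± 0.27 (adjusted p = 4.66e-07). Per length of the gene, Vcam1 stood highest of the 10 in WT control astrocytes at 518 ± 41.0 TPM (SD, n = 3), followed by Nfkbia at 440 ± 80.4 TPM and Nfkb2 at 340 ± 107 TPM, and Tnfaip3 stood lowest at 58.5 ± 18.1 TPM. In WT control neurons Nfkbia stood highest at 68.2 ± 8.82 TPM, followed by Vcam1 at 32.7 ± 5.62 TPM and Rela at 30.5 ± 3.97 TPM, and Birc3 stood lowest at 1.22 ± 0.272 TPM. The neuron libraries held 30 to 45 counts of Birc3 in the WT control group, which makes it the least precisely measured gene of the set there.

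In CPM over all 8 groups, every gene but 1 had its neuron groups below its astrocyte groups with no overlap of neighbouring groups at the border. How many of all genes are separated in this way was not counted. The exception was Nfkbia, whose TM-treated KO neurons (91.8, 58.5 and 74.4 CPM) overlapped with KO control astrocytes (89.8, 91.6 and 92.2 CPM) and with the lowest library of TM-treated WT astrocytes (77.0 CPM). Within astrocytes, WT control cultures came first for Relb, Nfkbia, Nfkbie, Tnfaip3, Birc3, Icam1 and Vcam1, and TM-treated WT cultures for Nfkb1, Nfkb2 and Rela. For Nfkbie, Icam1 and Vcam1 all WT control astrocyte libraries lay above those of the next group, TM-treated KO astrocytes, while for the other 4 genes that WT control cultures led, they overlapped with the next group. Within neurons, TM-treated KO cultures came first by mean for 8 genes, and TM-treated WT cultures for Nfkb2 (32.4 ± 5.18 CPM) and Relb (27.3 ± 2.08 CPM). For Nfkb1, Nfkb2, Rela and Birc3 the libraries of the first neuron group overlapped with those of the next.

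**Figure D1:**
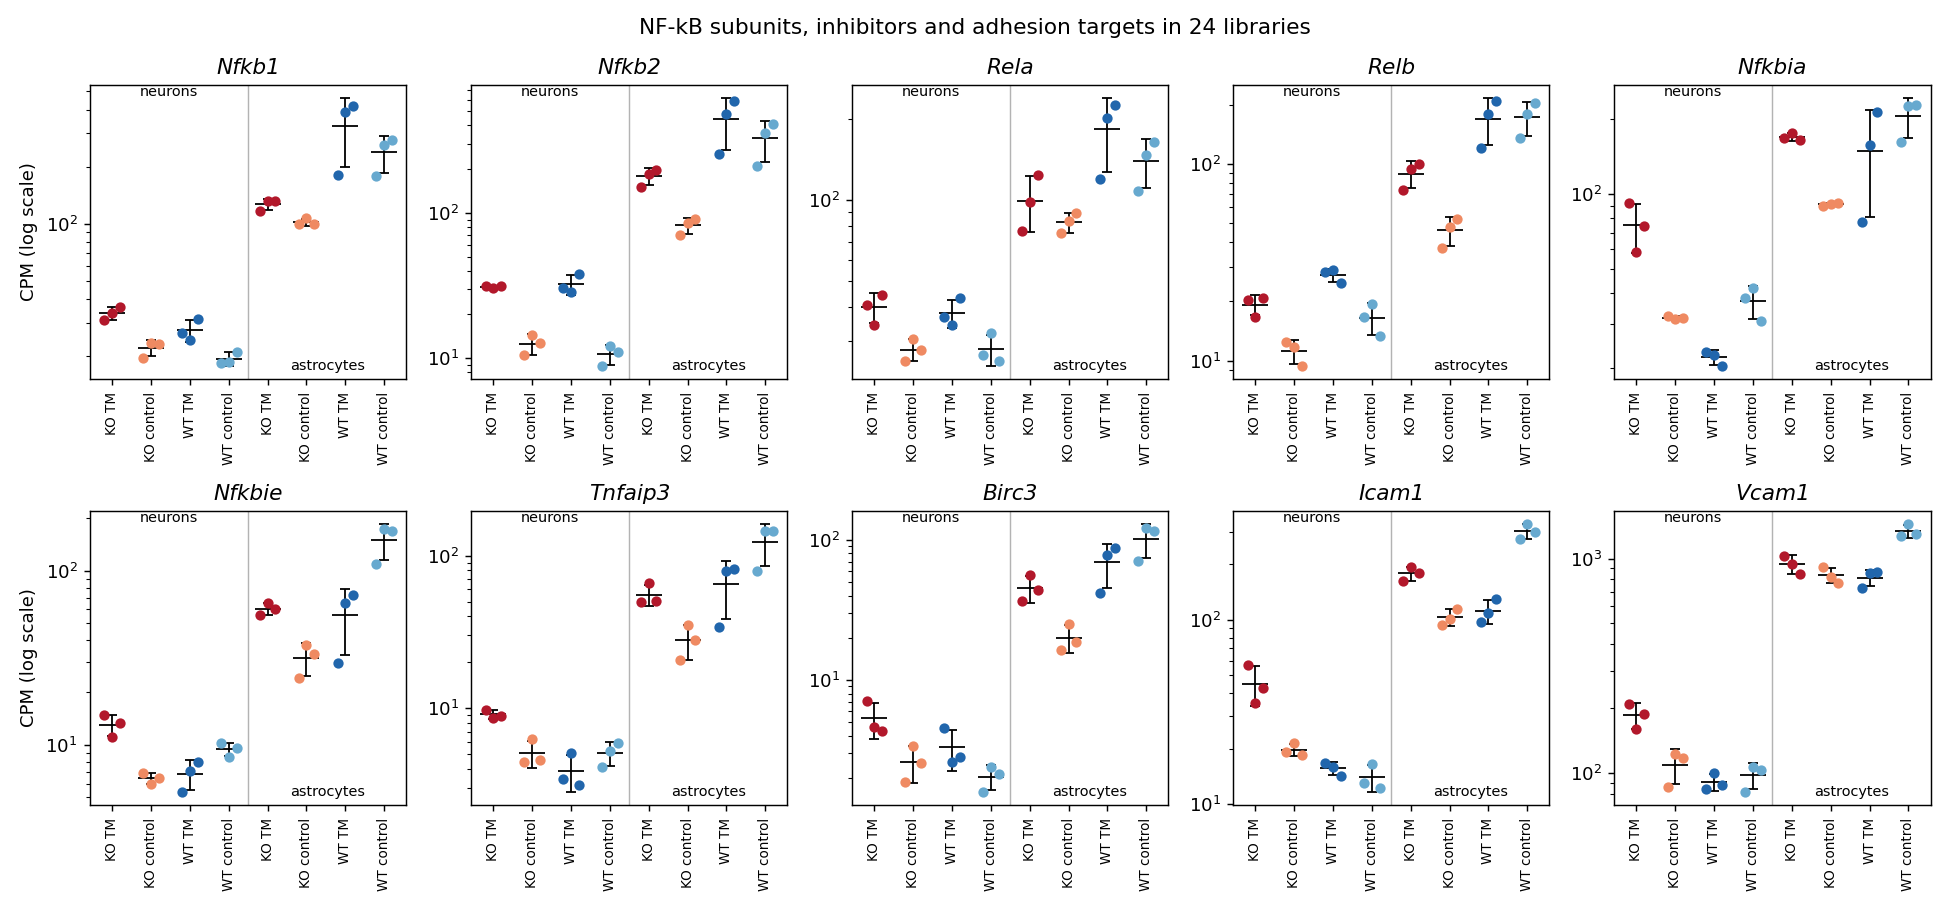
CPM of each gene in every library on a log axis, with neurons left and astrocytes right of the grey line and, within each, KO TM, KO control, WT TM and WT control from left to right. Points are libraries, and bars are the mean and SD of 3 libraries. Icam1 lay at 35.6 to 57.0 CPM in TM-treated KO neurons, above the other neuron groups, and at 275 to 331 CPM in WT control astrocytes, above the other astrocyte groups.

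In Perk KO neurons all 10 genes rose with TM, and in WT neurons only the subunit genes and Birc3 rose. TM raised genes of every role in KO neurons, where 13.1% of 16197 genes tested were called higher and 10.8% lower. All TM libraries lay above all control libraries for each of the 10 in KO neurons, as they did for 20% of all genes tested. In WT neurons 5 genes rose and 1 fell, against 27% of 15546 genes called higher and 24.8% called lower. The median log2 fold change of the 10 genes was 0.99 in KO neurons, with 0.02 over all genes, and 0.45 in WT neurons, with 0.04 over all genes.

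The subunit genes rose in both genotypes. Nfkb2 had 31.2, 30.2 and 31.5 CPM in TM-treated KO neurons, against 10.5, 14.5 and 12.8 CPM in KO control neurons. In WT neurons it had 30.6, 28.4 and 38.2 CPM with TM, against 8.87, 12.2 and 11 CPM without. The TM and control libraries did not overlap in either genotype, and the log2 fold change was 1.35 ± 0.14 in KO (adjusted p = 0.000855) and 1.75 ± 0.17 in WT neurons (adjusted p = 5.16e-05). Nfkb2 overlaps Psd, a gene on the opposite strand with high levels in neurons, and the library kit named in the labels does not mark strand, so their reads could not be told apart where they overlap. Psd averaged 144 ± 8.08 CPM in TM-treated WT neurons and 212 ± 19.0 CPM in WT control neurons (SD, n = 3 each), a change opposite to that of Nfkb2. Relb rose by 0.83 ± 0.16 in KO (adjusted p = 0.00872) and 0.87 ± 0.15 in WT neurons (adjusted p = 0.00147). Nfkb1 rose by 0.66 ± 0.12 in KO neurons (adjusted p = 0.00794) and by 0.65 ± 0.14 in WT neurons (adjusted p = 0.00384). Rela, whose protein carries the main activating domain, changed least of the 4 in KO neurons, by 0.58 ± 0.14 (adjusted p = 0.0191), and by 0.60 ± 0.13 in WT neurons (adjusted p = 0.0055). The call of Rela in KO neurons ended when any of 3 libraries was left out, with adjusted p of 0.0745 to 0.0833.

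The inhibitor genes went opposite ways in KO and WT neurons, although the WT change of Nfkbie did not pass. Nfkbia, whose protein IkB-alpha NF-kB itself induces, had 91.8, 58.5 and 74.4 CPM in TM-treated KO neurons, against 32.4, 31.4 and 31.8 CPM in KO control neurons. In WT neurons it had 23.2, 22.6 and 20.4 CPM with TM, against 38.2, 41.9 and 31.0 CPM without. All TM libraries lay above all control libraries in KO and below them in WT neurons. The log2 fold change was 1.29 ± 0.17 in KO (adjusted p = 0.00178) and -0.60 ± 0.13 in WT neurons (adjusted p = 0.00519). Nfkbie had 14.8, 11.1 and 13.3 CPM in TM-treated KO neurons, against 6.89, 5.94 and 6.48 CPM in KO control neurons, and rose by 1.08 ± 0.17 (adjusted p = 0.00384). In WT neurons Nfkbie had 5.40, 7.13 and 7.98 CPM with TM, against 10.2, 8.57 and 9.63 CPM without, and a log2 fold change of -0.32 ± 0.18 that did not pass (adjusted p = 0.178), although the libraries did not overlap.

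Of the feedback regulators, Tnfaip3 had 9.80, 8.68 and 8.89 CPM in TM-treated KO neurons, against 4.45, 6.29 and 4.55 CPM in KO control neurons, and rose by 0.90 ± 0.19 (adjusted p = 0.0136). In WT neurons it had 3.44, 5.11 and 3.15 CPM with TM, against 4.12, 5.22 and 5.88 CPM without, with overlapping libraries (log2 fold change -0.23 ± 0.24, adjusted p = 0.465). Birc3 was called higher in both genotypes, by 1.10 ± 0.31 in KO (adjusted p = 0.0357) and 0.84 ± 0.29 in WT neurons (adjusted p = 0.0393). Both Birc3 calls were near the threshold: without 1 of 4 libraries in turn, the adjusted p was 0.0605 to 0.122 in KO and 0.0515 to 0.157 in WT neurons, and DESeq2 gave 0.0694 in WT neurons. The Tnfaip3 call in KO neurons ended without control replicate 1 (adjusted p = 0.0613) or 3 (adjusted p = 0.063).

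The adhesion molecule genes rose in KO neurons. Icam1 had 57.0, 35.6 and 42.8 CPM in TM-treated KO neurons, against 19.3, 21.4 and 18.4 CPM in KO control neurons (log2 fold change 1.25 ± 0.18, adjusted p = 0.00292). In WT neurons Icam1 had 16.7, 16.0 and 14.3 CPM with TM, against 13.1, 16.6 and 12.3 CPM without, with overlapping libraries (0.31 ± 0.15, adjusted p = 0.112). Vcam1 had 210, 160 and 188 CPM in TM-treated KO neurons, against 86.0, 123 and 117 CPM in KO control neurons (0.83 ± 0.16, adjusted p = 0.00935). In WT neurons Vcam1 had 83.8, 100 and 87.9 CPM with TM, against 81.8, 107 and 103 CPM without (0.05 ± 0.12, adjusted p = 0.755). Both genes thus separated TM from control libraries in KO but not in WT neurons. Summed microglia markers in the same neuron cultures were 66.2 to 95.7 CPM in KO TM, 89.6 to 127 CPM in KO control, 29.5 to 36.8 CPM in WT TM and 45.5 to 73.0 CPM in WT control libraries, and endothelial markers 21.8 to 26.2, 22.9 to 27.5, 16.1 to 19.1 and 23.4 to 32.2 CPM, with Tie1 at 0 in every library of both WT groups. In the same order, fibroblast and mural cell markers summed to 301 to 314, 462 to 612, 142 to 173 and 446 to 462 CPM. Oligodendrocyte lineage markers summed to 299 to 362, 384 to 450, 116 to 162 and 505 to 581 CPM. The part of these shifts in the results for Icam1 and Vcam1 was not tested.

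In KO astrocytes TM raised Nfkb2, Relb, both inhibitor genes, both feedback regulator genes and Icam1, and in WT astrocytes it lowered Nfkbie, Tnfaip3, Icam1 and Vcam1. In KO astrocytes 7 of the 10 genes rose and none fell, where 5.55% of 15164 genes were called higher and 4.6% lower. In WT astrocytes none rose and 4 fell, where 25% of 14907 genes were called higher and 27.7% lower. DESeq2 likewise called 4 lower and 0 higher. With edgeR's test, 0 of the 10 had a positive fold change with an unadjusted p under 0.05. In either direction 8755 of all 14907 genes tested had such a p. WT replicate 1 held the lowest value of its group for every one of the 10 genes, in control and TM-treated cultures alike. With the replicate number as a block, 3 genes rose and 6 fell in WT astrocytes, and all 10 rose in KO astrocytes. Over all 15164 genes tested in KO astrocytes the block gave 4288 called genes in either direction, against 1539 without it. No such number over all genes is given for the block in WT astrocytes. The counts of 3 and 6 genes there therefore have no share of all genes beside them.

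Nfkb2 had 152, 186 and 199 CPM in TM-treated KO astrocytes, against 71.0, 84.9 and 91.0 CPM in KO control astrocytes (log2 fold change 1.12 ± 0.13, adjusted p = 0.000805). In WT astrocytes it had 254, 482 and 592 CPM with TM, against 212, 357 and 409 CPM without, with overlapping libraries (0.42 ± 0.33, adjusted p = 0.304). Within each replicate number the WT ratio of TM to control was positive, at 0.26, 0.43 and 0.53 on the log2 scale, and the blocked fit gave 0.39 ± 0.08 (adjusted p = 0.00262). Psd, which overlaps Nfkb2, averaged 43.2 ± 7.17 CPM in KO TM, 20.6 ± 3.61 CPM in KO control, 71.7 ± 29.0 CPM in WT TM and 54.8 ± 17 CPM in WT control astrocytes, in the same order as Nfkb2 (SD, n = 3 each). Relb rose in KO astrocytes by 0.95 ± 0.15 (adjusted p = 0.00422) and had a log2 fold change of -0.04 ± 0.22 in WT astrocytes (adjusted p = 0.899), where it averaged 170 ± 45.3 CPM with TM and 172 ± 34.7 CPM without (SD, n = 3 each). Nfkb1 and Rela had log2 fold changes of 0.31 ± 0.09 and 0.27 ± 0.16 in KO astrocytes that did not pass (adjusted p = 0.0598 and 0.37). With the block both passed in KO astrocytes, Nfkb1 at 0.31 ± 0.06 (adjusted p = 0.00213) and Rela at 0.25 ± 0.08 (adjusted p = 0.0342). In WT astrocytes they passed with the block as well, Nfkb1 at 0.38 ± 0.12 (adjusted p = 0.0202) and Rela at 0.34 ± 0.08 (adjusted p = 0.00762), and not without it (adjusted p = 0.247 and 0.231).

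The inhibitor genes again went opposite ways. Nfkbie had 55.8, 65.3 and 60.1 CPM in TM-treated KO astrocytes, against 24.1, 37.4 and 33.1 CPM in KO control astrocytes (log2 fold change 0.94 ± 0.15, adjusted p = 0.00491). In WT astrocytes Nfkbie had 29.7, 65.7 and 72.1 CPM with TM, against 110, 173 and 168 CPM without (-1.45 ± 0.32, adjusted p = 0.00634), and neither pair of groups overlapped. Nfkbia had 168, 177 and 165 CPM in TM-treated KO astrocytes, against 89.8, 91.6 and 92.2 CPM in KO control astrocytes (0.90 ± 0.08, adjusted p = 0.000205). In WT astrocytes Nfkbia had 77.0, 158 and 214 CPM with TM, against 163, 227 and 228 CPM without (-0.48 ± 0.32, adjusted p = 0.242). Its 3 WT ratios were -1.08, -0.52 and -0.09 on the log2 scale, so that replicate 1 fell most, and the blocked fit gave -0.58 ± 0.16 (adjusted p = 0.0131). With replicate 1 of both WT groups left out, a choice made after the values were seen, the fold change was -0.30 ± 0.14 (adjusted p = 0.0969).

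Tnfaip3 rose in KO astrocytes, with 49.8, 65.7 and 50.6 CPM under TM against 20.7, 35.3 and 28.1 CPM in controls (log2 fold change 0.98 ± 0.19, adjusted p = 0.0115), a call that ended without KO TM replicate 2 (adjusted p = 0.0508). In WT astrocytes it had 34.1, 79.1 and 81.7 CPM with TM, against 79.4, 146 and 144 CPM without (-0.94 ± 0.34), and the fall was at the threshold (adjusted p = 0.0496). With DESeq2's size factors that adjusted p was 0.0514, and without 1 of 4 libraries in turn it was 0.0617 to 0.143. It was 0.01 with DESeq2, 3.54e-05 with the block (-0.98 ± 0.09) and 6.78e-05 with replicate 1 left out in both treatments, a setting chosen after seeing the data (-0.86 ± 0.09), and the log2 ratios of TM to control within replicate numbers were -1.22, -0.88 and -0.82. Birc3 rose by 1.18 ± 0.20 in KO astrocytes (adjusted p = 0.00537). In WT astrocytes it had a log2 fold change of -0.58 ± 0.29 (adjusted p = 0.126), or -0.60 ± 0.08 with the block (adjusted p = 0.000339).

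Icam1 had 162, 194 and 180 CPM in TM-treated KO astrocytes, against 93.4, 101 and 115 CPM in KO control astrocytes (log2 fold change 0.80 ± 0.11, adjusted p = 0.00189). In WT astrocytes it had 96.9, 109 and 129 CPM with TM, against 275, 331 and 299 CPM without (-1.45 ± 0.13, adjusted p = 0.00011). TM thus separated the libraries of both genotypes, upward in KO and downward in WT. Vcam1 fell in WT astrocytes, with 731, 853 and 862 CPM under TM against 1269, 1449 and 1299 CPM in controls (-0.74 ± 0.12, adjusted p = 0.00145). In KO astrocytes it had 1032, 947 and 847 CPM with TM, against 909, 822 and 772 CPM without, with overlapping libraries (0.17 ± 0.11, adjusted p = 0.391, or 0.17 ± 0.06 and adjusted p = 0.044 with the block). Endothelial markers summed to 23.3 to 30.8 CPM in KO TM, 22.4 to 32.1 CPM in KO control, 11.5 to 14.9 CPM in WT TM and 20.7 to 33.2 CPM in WT control astrocytes, with Emcn at 0 in all libraries but those of the WT control group and Tie1 at 0 in all libraries of both control groups. Microglia markers summed to 56.4 to 84.4, 59.5 to 197, 24.6 to 63.5 and 68.1 to 215 CPM in the same 4 groups. Fibroblast and mural cell markers summed to 520 to 712, 1032 to 1555, 342 to 436 and 1074 to 1215 CPM there. Oligodendrocyte lineage markers summed to 474 to 548, 469 to 550, 101 to 105 and 397 to 419 CPM. The part of these shifts in the results for Icam1 and Vcam1 was not tested.

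**Figure D2:**
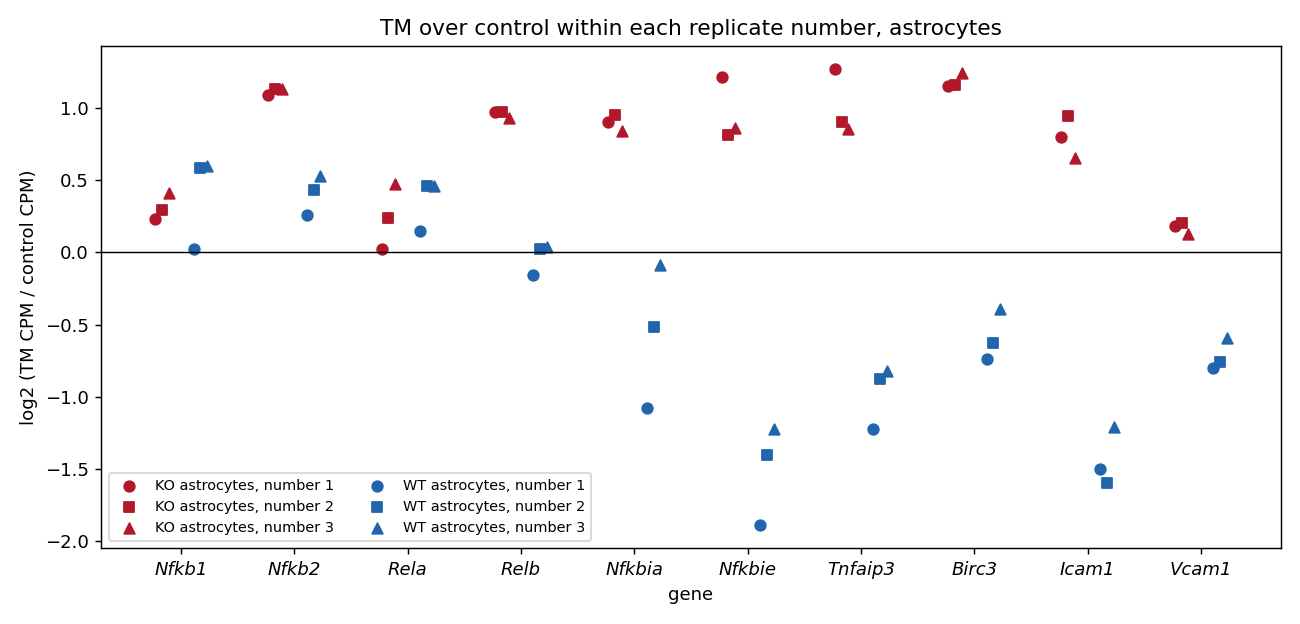
log2 ratio of TM to control CPM within each replicate number for the 10 genes, with KO astrocytes in red left of WT astrocytes in blue; circles, squares and triangles are numbers 1, 2 and 3. All KO points lie above 0, from 0.02 for Rela to 1.27 for Tnfaip3, and all WT points of Nfkbia, Nfkbie, Tnfaip3, Birc3, Icam1 and Vcam1 lie below 0.

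Without TM, loss of Perk went with lower NF-kB genes in astrocytes. All 10 genes were called lower in KO control than in WT control astrocytes, and the libraries of the groups overlapped for none, where 4.71% of 15196 genes were called higher, 10.2% were called lower and 19.6% had all KO libraries below all WT libraries. With the block the same 10 genes passed, among 2753 genes called higher and 2977 lower, against 716 and 1544 without it. The median log2 fold change was -1.73 over the 10 genes and 0.03 over all genes. Birc3 changed most, with 16.3, 25.2 and 18.8 CPM in KO control against 70.4, 121 and 115 CPM in WT control astrocytes (log2 fold change -2.35 ± 0.24, adjusted p = 0.00501). Nfkbie fell by 2.26 ± 0.22 (adjusted p = 0.00471) and Tnfaip3 by 2.14 ± 0.27 (adjusted p = 0.00902). The noncanonical subunit genes fell further than the canonical ones in fold change: Nfkb2 by 1.99 ± 0.23 (adjusted p = 0.00765) and Relb by 1.91 ± 0.18 (adjusted p = 0.00471), against Nfkb1 by 1.22 ± 0.16 (adjusted p = 0.00994) and Rela by 0.76 ± 0.16 (adjusted p = 0.0205), a contrast between genes that was not itself tested. Icam1 fell by 1.55 ± 0.12 (adjusted p = 0.00261), Nfkbia by 1.18 ± 0.14 (adjusted p = 0.00765) and Vcam1 by 0.69 ± 0.11 (adjusted p = 0.0119). Without WT control replicate 2 only 50 of 15229 genes were called in all, 6 of the 10 genes among them, and the adjusted p of Nfkb1, Rela, Tnfaip3 and Vcam1 was 0.0527 to 0.0918. Astrocyte markers summed to 3430 to 4533 CPM in KO control and 2542 to 3788 CPM in WT control astrocytes, and microglia markers to 59.5 to 197 CPM and 68.1 to 215 CPM.

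In control neurons few of the genes differed by genotype. Icam1 was higher, with 19.3, 21.4 and 18.4 CPM in KO control against 13.1, 16.6 and 12.3 CPM in WT control neurons (log2 fold change 0.52 ± 0.14, adjusted p = 0.0331). Nfkbie was lower, with 6.89, 5.94 and 6.48 CPM in KO control against 10.2, 8.57 and 9.63 CPM in WT control neurons (-0.52 ± 0.15, adjusted p = 0.0427). That makes 1 gene of 10 in each direction, where 12.2% of 15757 genes were called higher and 9.16% lower. Neither call was kept with every library left out in turn: the adjusted p of Icam1 was 0.0749 to 0.126 without any of 4 libraries and that of Nfkbie 0.0625 to 0.145 without any of the 6, and DESeq2 gave 0.0675 for Nfkbie. Vcam1 averaged 109 ± 19.7 CPM in KO control and 97.2 ± 13.5 CPM in WT control neurons (SD, n = 3 each), a log2 fold change of 0.19 ± 0.15 (adjusted p = 0.387) whose sign turned to -0.57 ± 0.18 with a correction for GC content (adjusted p = 0.0526). Summed fibroblast and mural cell markers were 462 to 612 CPM in KO control and 446 to 462 CPM in WT control neurons, and 6 of 8 tested were called higher.

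Under TM the inhibitor and adhesion genes of neurons were higher in KO than in WT cultures. Of the 10 genes 5 were called higher and 1 lower, where 20.7% of 16026 genes were called higher and 19.4% lower. Nfkbia was higher by 1.74 ± 0.18 on the log2 scale (91.8, 58.5 and 74.4 CPM in KO against 23.2, 22.6 and 20.4 CPM in WT, adjusted p = 0.000226). Icam1 was higher by 1.5 ± 0.20 (adjusted p = 0.000609), Tnfaip3 by 1.20 ± 0.23 (adjusted p = 0.00373), Vcam1 by 1.01 ± 0.14 (adjusted p = 0.000727) and Nfkbie by 0.91 ± 0.21 (adjusted p = 0.00859), and for all 5 the KO libraries lay above the WT libraries, as they did for 27.5% of all genes tested. Relb was lower, with 20.3, 16.7 and 20.9 CPM in KO against 28.1, 28.8 and 24.9 CPM in WT neurons (-0.53 ± 0.15, adjusted p = 0.0206). That call ended without WT TM replicate 1 (adjusted p = 0.0615) or 2 (adjusted p = 0.079). The other subunit genes did not pass: Nfkb1 had a log2 fold change of 0.27 ± 0.13 (adjusted p = 0.152), Nfkb2 of -0.09 ± 0.14 (adjusted p = 0.619) and Rela of 0.04 ± 0.15 (adjusted p = 0.854). Birc3 passed only with the replicate number as a block (0.66 ± 0.21, adjusted p = 0.0315, against 0.67 ± 0.31 and adjusted p = 0.121 without it). Same-numbered libraries of these 2 groups deviated together across genes with r of 0.13 to 0.32. A differently numbered pair of WT control and TM-treated KO neurons reached r = 0.49. Whether the numbers pair libraries in neurons is therefore uncertain. All 12 astrocyte markers were called higher in the same comparison, with sums of 3542 to 4469 CPM in KO and 991 to 1076 CPM in WT neuron cultures under TM, and 7 of 8 tested microglia markers were called higher too. Whether these cell-type shifts bear on the 5 genes was not tested.

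In astrocytes under TM the subunit genes were lower in KO cultures, and Icam1 was higher. Icam1 had 162, 194 and 180 CPM in KO against 96.9, 109 and 129 CPM in WT astrocytes under TM (log2 fold change 0.70 ± 0.13, adjusted p = 0.00176). Nfkb1 had 117, 131 and 132 CPM in KO against 180, 389 and 418 CPM in WT astrocytes (-1.35 ± 0.28, adjusted p = 0.00275). Nfkb2 had a log2 fold change of -1.28 ± 0.28 (adjusted p = 0.00352), Relb of -0.91 ± 0.21 (adjusted p = 0.00475) and Rela of -0.86 ± 0.25 (adjusted p = 0.016). That is 1 gene higher and 4 lower of 10, where 32.1% of 14927 genes were called higher and 31.2% lower. Nfkbia (0.20 ± 0.30, adjusted p = 0.579), Nfkbie (0.14 ± 0.28, adjusted p = 0.691), Tnfaip3 (-0.21 ± 0.30, adjusted p = 0.562) and Vcam1 (0.23 ± 0.12, adjusted p = 0.126) did not pass. Birc3 did not pass (-0.58 ± 0.27, adjusted p = 0.0875), but did with the block (-0.54 ± 0.15, adjusted p = 0.0104), with DESeq2 (adjusted p = 0.0403) and with no filter on low counts (adjusted p = 0.0297). The call of Rela ended without WT TM replicate 2 (adjusted p = 0.0539) or KO TM replicate 1 (adjusted p = 0.0584). Astrocyte markers summed to 2119 to 2780 CPM in KO and 690 to 775 CPM in WT astrocytes under TM.

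**Figure D3:**
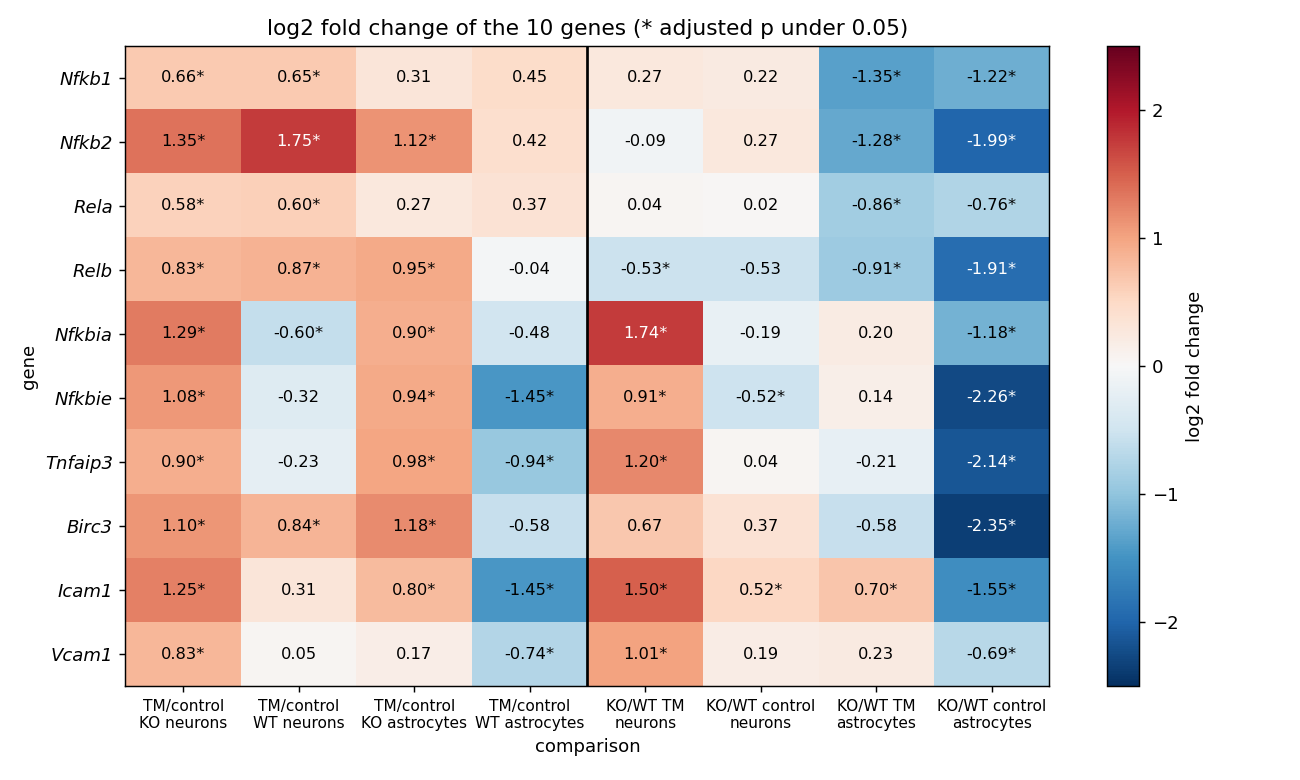
log2 fold change of each gene (rows) in the 4 comparisons of TM with control and the 4 comparisons of KO with WT (columns), red for higher and blue for lower; an asterisk marks an adjusted p under 0.05. The KO neuron column of TM is red for all 10 genes (0.58 to 1.35), and the control astrocyte column of KO against WT is blue for all 10 (-0.69 to -2.35).

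The authors' deposited tables, made with DESeq2 on the same counts, gave similar counts of the 10 genes at an adjusted p under 0.05. In the authors' deposited table of TM against control, 10 genes were higher in KO neurons, 4 higher and 1 lower in WT neurons, 8 higher in KO astrocytes and 4 lower in WT astrocytes. In the authors' deposited table of KO against WT, 10 genes were lower in control astrocytes. In TM-treated astrocytes the authors' deposited table had 1 higher and 5 lower. For neurons it had 1 higher in control cultures, and 5 higher and 1 lower in TM-treated cultures. How many of all genes passed in the authors' deposited tables was not counted. The authors' counts of the 10 genes therefore have no share of all genes beside them. The shares given elsewhere are those of edgeR's test.

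The TM response itself differed between the genotypes for the inhibitor and adhesion genes, in both cell types. The difference, TM response in KO minus TM response in WT cells, was tested as an interaction over 12 libraries of a cell type. In neurons 5 of the 10 genes were called, all with a more positive response in KO, where 14.5% of 15939 genes were called in that direction and 15.4% in the other. The differences were 1.85 ± 0.22 for Nfkbia (adjusted p = 8.99e-05), 1.36 ± 0.24 for Nfkbie (adjusted p = 0.00132), 1.09 ± 0.31 for Tnfaip3 (adjusted p = 0.0206), 0.91 ± 0.24 for Icam1 (adjusted p = 0.0136) and 0.75 ± 0.21 for Vcam1 (adjusted p = 0.0191) on the log2 scale. The Tnfaip3 call ended without KO control replicate 1 (adjusted p = 0.0505) or 3 (adjusted p = 0.0508). Birc3 did not pass (0.22 ± 0.44, adjusted p = 0.733), nor did the 4 subunit genes, with differences between -0.43 ± 0.21 for Nfkb2 (adjusted p = 0.149) and -0.02 ± 0.17 for Nfkb1 (adjusted p = 0.932).

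In astrocytes 7 of the 10 genes were called, again all with a more positive response in KO, where 19.8% of 15114 genes were called in that direction and 14.6% in the other. Nfkbie differed by 2.37 ± 0.40 (adjusted p = 0.00086) and Icam1 by 2.23 ± 0.18 (adjusted p = 5.07e-06). Tnfaip3 differed by 1.91 ± 0.45 (adjusted p = 0.00664), Birc3 by 1.74 ± 0.40 (adjusted p = 0.00549) and Nfkbia by 1.36 ± 0.38 (adjusted p = 0.0149). Relb (0.97 ± 0.30, adjusted p = 0.0245) and Vcam1 (0.89 ± 0.16, adjusted p = 0.00114) were called as well, and with the block Nfkb2 also passed (0.70 ± 0.20, adjusted p = 0.0104). Nfkb1 (-0.15 ± 0.35, adjusted p = 0.77) and Rela (-0.12 ± 0.33, adjusted p = 0.805) did not pass. The call of Relb ended without any of 4 libraries, with adjusted p of 0.0513 to 0.059. Under TM the genotypes lay closer together than in control cultures for the genes with opposite responses: Nfkbie averaged 60.4 ± 4.79 CPM in KO and 55.9 ± 22.9 CPM in WT astrocytes under TM, and 31.5 ± 6.76 against 150 ± 35.1 CPM in control astrocytes (SD, n = 3 each).

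**Figure D4:**
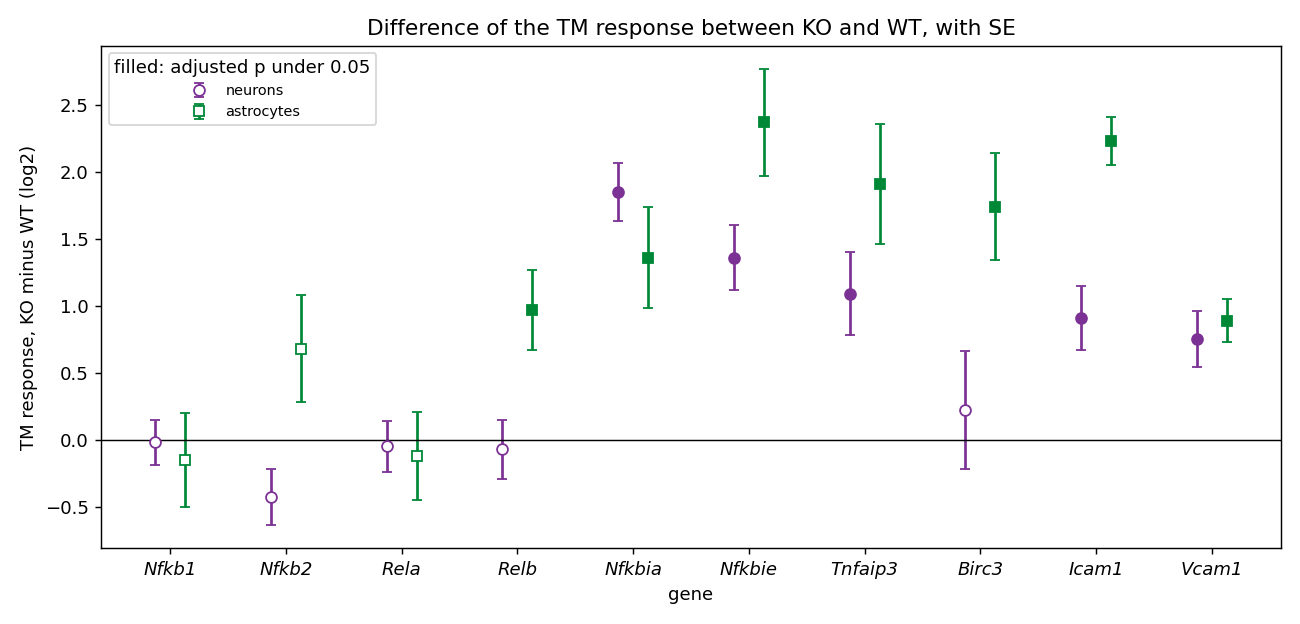
Difference of the TM response between KO and WT cells on the log2 scale for each gene, as estimate and SE, with neurons as circles left of astrocytes as squares; filled symbols have an adjusted p under 0.05. Nfkb1 and Rela lie at or just below 0 in both cell types, and Nfkbia, Nfkbie, Tnfaip3, Icam1 and Vcam1 lie above 0 in both.

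The TM response was also compared between the cell types. Among WT cultures, Icam1 (1.58 ± 0.19, adjusted p = 0.00018) and Vcam1 (0.61 ± 0.17, adjusted p = 0.0208) had a more positive log2 response in neurons than in astrocytes, 2 of the 10 genes, where 24.9% of 15712 genes were called in either direction. That count rested on the settings, and was 6 with the block and 4 with DESeq2, and the Vcam1 call ended without either of 2 libraries (adjusted p = 0.0523 and 0.0596). Among KO cultures 0 of the 10 genes passed with edgeR's quasi-likelihood test, where 11.7% of 16059 genes were called and DESeq2 called 1 of the 10. Unadjusted p-values under 0.05 were found for 2 of the 10 there, Vcam1 (0.66 ± 0.21, adjusted p = 0.0591) and Nfkb1 (0.35 ± 0.15, adjusted p = 0.135). Of all 16059 genes tested, 4432 had an unadjusted p under 0.05, so the set did not stand out. The difference between neurons and astrocytes in how the genotype altered the TM response was called for 1 gene, Icam1 (-1.19 ± 0.30, adjusted p = 0.0224), where 5.51% of 15924 genes were called, and was smaller in neurons.

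Of 17 tested genes known as further NF-kB targets, most moved with the set in control astrocytes. In KO against WT control astrocytes 11 were lower and 0 higher, among them Tnfaip2 (log2 fold change -2.49 ± 0.22, adjusted p = 0.00386), Irf1, an interferon-response factor (-2.05 ± 0.23, adjusted p = 0.00695), and Cd83 (-2.51 ± 0.32, adjusted p = 0.00913), with a list median of -1.17 and 0.03 over all genes. Of all genes tested there, 10.2% were called lower and 4.71% higher. With TM, 8 of 17 were higher and 0 lower in KO neurons, led by Traf1 (1.80 ± 0.18, adjusted p = 0.000743), Gadd45b (1.05 ± 0.13, adjusted p = 0.00168) and Tnfaip2 (2.17 ± 0.28, adjusted p = 0.00178). Of all genes tested in KO neurons, 13.1% were called higher and 10.8% lower. In WT neurons 6 were higher and 4 lower, where 27% of all genes tested were called higher and 24.8% lower. The leading genes there were Ptgs2 (2.61 ± 0.19, adjusted p = 1.29e-05), Ier3 (2.03 ± 0.15, adjusted p = 1.45e-05) and Tnfaip2 (1.95 ± 0.20, adjusted p = 8.11e-05). In KO astrocytes 4 of 16 were higher with TM and 0 lower, led by Cd83 (2.00 ± 0.22, adjusted p = 0.000577), and in WT astrocytes 3 of 17 were higher and 7 lower, led by Psmb9 (-2.21 ± 0.21, adjusted p = 0.000145), Traf1 (-2.35 ± 0.24, adjusted p = 0.000204) and Tap1 (-1.44 ± 0.15, adjusted p = 0.00021). Of all genes tested, TM raised 5.55% and lowered 4.6% in KO astrocytes, and raised 25% and lowered 27.7% in WT astrocytes. Psmb9 and Tap1 belong to antigen processing and are induced by interferon as well as by NF-kB. Under TM, Traf1 was higher in KO than in WT cultures of neurons (2.5 ± 0.19, adjusted p = 5.89e-05) and of astrocytes (2.60 ± 0.20, adjusted p = 2.03e-05), while Ptgs2 was lower (-2.45 ± 0.23, adjusted p = 0.000139, and -3.36 ± 0.45, adjusted p = 0.000277).

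Other members of the Rel and IkB family gave 5 of 7 lower and 0 higher in KO against WT control astrocytes, among them Nfkbiz (-1.12 ± 0.13, adjusted p = 0.0084) and Bcl3 (-1.70 ± 0.21, adjusted p = 0.00902), whose proteins are nuclear IkB proteins. In that comparison 10.2% of all genes tested were called lower and 4.71% higher. With TM, Nfkbiz rose in KO neurons (1.05 ± 0.18, adjusted p = 0.00503) and KO astrocytes (0.72 ± 0.12, adjusted p = 0.00542). Bcl3 fell with TM in WT astrocytes (-2.17 ± 0.33, adjusted p = 0.00122). Among 23 upstream kinases and adaptors, TM raised 7 and lowered 1 in KO neurons, led by Map3k14, the kinase NIK of the noncanonical pathway (1.15 ± 0.20, adjusted p = 0.00624), and the 1 lowered gene was Traf3, which promotes loss of NIK (-0.44 ± 0.09, adjusted p = 0.0107). In WT neurons 10 of the 23 rose and 0 fell, led by Ripk1 (1.12 ± 0.12, adjusted p = 0.000104). Of all genes tested, TM raised 13.1% and lowered 10.8% in KO neurons, and raised 27% and lowered 24.8% in WT neurons. In KO against WT control astrocytes 7 of the 23 were lower and 0 higher, among them Traf2 (-0.81 ± 0.12, adjusted p = 0.0102), Birc2 (-0.80 ± 0.13, adjusted p = 0.012) and Map3k14 (-1.27 ± 0.23, adjusted p = 0.0148). Under TM, 4 were higher and 13 lower in KO than in WT astrocytes, where 32.1% of all genes tested were called higher and 31.2% lower. The gene with the smallest p was Ikbke, a kinase related to IKK, which was higher (1.57 ± 0.14, adjusted p = 4.13e-05).

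Of the receptors that activate NF-kB, Tlr2, which recognises bacterial lipoproteins, had the smallest p in KO neurons and KO astrocytes under TM and in control astrocytes by genotype. With TM it rose by 3.68 ± 0.30 in KO neurons (adjusted p = 0.000382), by 1.71 ± 0.15 in KO astrocytes (adjusted p = 0.000163), and by 0.84 ± 0.21 in WT neurons (adjusted p = 0.00973). It had a log2 fold change of -2.39 ± 0.22 in WT astrocytes (adjusted p = 0.000125). In KO against WT control astrocytes it had -2.45 ± 0.20 (adjusted p = 0.00274), and 5 of 13 receptors were lower there and 0 higher. Of all genes tested there, 10.2% were called lower and 4.71% higher. Tlr2 is also expressed by microglia, whose summed markers are given with the adhesion genes. Other receptors went against Tlr2. In WT neurons the smallest p with TM were those of Tnfrsf12a (1.40 ± 0.11, adjusted p = 1.95e-05) and Cd40 (3.52 ± 0.28, adjusted p = 2.01e-05). Their TM response in KO minus WT neurons was -1.16 ± 0.25 (adjusted p = 0.00435) and -3.54 ± 0.55 (adjusted p = 0.000619), against 2.81 ± 0.38 for Tlr2 (adjusted p = 0.000225). The brake genes gave 4 of 13 lower and 0 higher in KO against WT control astrocytes, led by Tank (-1.0 ± 0.16, adjusted p = 0.0118). In KO against WT astrocytes under TM 1 of 13 was higher and 9 lower, where 32.1% of all genes tested were called higher and 31.2% lower. Of 11 further adhesion molecule genes tested, TM raised 1 and lowered 2 in KO neurons, and raised 0 and lowered 5 in WT neurons, led in both by Icam5, an adhesion protein of neurons (-0.69 ± 0.11, adjusted p = 0.0039, and -1.61 ± 0.13, adjusted p = 2.07e-05). Icam5 thus had the opposite sign to Icam1 in KO neurons. Its TM response was still more positive in KO than in WT cells, as for Icam1. The difference was 0.89 ± 0.17 in neurons (adjusted p = 0.00252) and 2.08 ± 0.41 in astrocytes (adjusted p = 0.00233). The integrins that bind ICAM1 and VCAM1 gave 0 higher and 1 lower of 6 tested genes in both KO and WT neurons under TM. Of all genes tested, TM raised 13.1% and lowered 10.8% in KO neurons, and raised 27% and lowered 24.8% in WT neurons.

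Across the 24 libraries, the genes most like each other or like the set were found by Pearson's r of log2 CPM, a measure that the distance between neurons and astrocytes dominates and that is given as a description. Nfkbie and Tnfaip3 were each other's closest gene (r = 0.983), and Birc3 was the second closest to Tnfaip3 (r = 0.981). Rela was closest to Nfkb1 (r = 0.989). Nfkbia was closest to Nfkbiz (r = 0.961), Relb to Traf2 (r = 0.986), Icam1 to Tap2 (r = 0.988), Nfkb2 to Mdm2 (r = 0.991), Nfkb1 to Fam107b (r = 0.994) and Vcam1 to Ptpn14 (r = 0.988). Birc3 was closest to H2-Q6 (r = 0.985), whose counts are uncertain because near-identical copies such as H2-Q7 share its reads.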

How the data were processed

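RNA of 24 libraries (8 groups of 3) was counted per gene. The submitters' processing notes name fastp, HISAT2 with GRCm38.p6, featureCounts and DESeq2; versions and the strand setting are not given in the sources used here. In 8 tables of 6 libraries each, the authors deposited raw read counts next to log2 fold changes, p-values and gene lengths of their own, per the file headers. Each library is in 2 tables, and 0 of 595092 counts compared differed. Totals were 16 to 25.9 M counts. The titles call the replicates biological without naming cultures or animals, so p-values may measure technical spread only.

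The deposited counts were tested with edgeR 4.0.16 (R 4.3.3): TMM, quasi-likelihood F test, a minimum mean of 10 counts over the libraries fitted, Benjamini-Hochberg adjusted p under 0.05 over all genes tested. Comparisons of 2 groups used their 6 libraries, interactions 12 or 24. SE is the log2 fold change divided by the square root of F. CPM was TMM-normalised over 24 libraries. TPM used the deposited gene length. The test was checked on simulated data. The genes, lists and tests were chosen with earlier results of these data known, and the named genes are the 10, up to 3 of each list with the smallest p, those that moved against the rest, and Eif2ak3; genes outside that rule that the text names, such as Psd, were chosen after their values were seen. Alternatives were no low-count filter, DESeq2 1.42.0 or its size factors, the replicate number as a block, a GC offset (99.9% of genes had a value), both, and each library left out. Same-numbered libraries deviated together across genes in every pair of astrocyte groups (r = 0.19 to 0.49) and in TM-treated KO and WT neurons (r = 0.13 to 0.32), and the numbers were taken to pair libraries only there. In neurons this pairing is uncertain, since a differently numbered pair of WT control and TM-treated KO libraries reached r = 0.49. The other neuron comparisons fell short of the cutoff on the lowest r (0.09 or below), KO against WT control neurons narrowly (r = 0.09 to 0.23).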

Additional observations from a re-analysis of the deposited data

Results flagged for a closer look

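TM responses of the genes differed between groups in 15 tests of the difference itself (edgeR's quasi-likelihood test, adjusted over all genes tested). Each group held 3 libraries, too few for a test of single libraries standing apart. In neurons the TM response of KO minus that of WT cultures was 1.85 for Nfkbia, 1.36 for Nfkbie, 1.09 for Tnfaip3, 0.91 for Icam1 and 0.75 for Vcam1 on the log2 scale. In astrocytes it was 0.97 for Relb, 1.36 for Nfkbia, 2.37 for Nfkbie, 1.91 for Tnfaip3, 1.74 for Birc3, 2.23 for Icam1 and 0.89 for Vcam1. Between WT neurons and WT astrocytes it was 1.58 for Icam1 and 0.61 for Vcam1, and the genotype's effect on the TM response differed between neurons and astrocytes by -1.19 for Icam1. Astrocyte marker sums differed between the same groups, and their part in these differences was not tested.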

How the results depend on the processing

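Counts of called genes out of the 10 moved by over 1.5 times in these cases. For TM against control in WT astrocytes the 4 called genes became 9 with the replicate block, 8 with the block and the GC offset, and 8 with WT replicate 1 left out in both treatments, an alternative chosen after seeing the data. For KO against WT control neurons the 2 became 1 with DESeq2, 1 with the GC offset and 4 with block and GC offset, and the block alone added Relb. Same-numbered libraries of these groups had r of 0.09 to 0.23, just short of the cutoff for taking the numbers as pairs. For the cell type difference of the TM response the 2 in WT became 6 without a filter, 4 with DESeq2, 6 with the block and 7 with block and GC offset; the 0 in KO became 1 without a filter, 1 with DESeq2 and 1 with the GC offset; the difference of both differences went to 3 with the block and 2 with block and GC offset, against 1. Genes with a kappa B match were 4 with the consensus and 7 with the looser motif. Leaving out each library in turn gave 5 to 6 called genes for TM in WT neurons, 7 to 10 in KO neurons, 3 to 6 in WT and 6 to 7 in KO astrocytes. For KO against WT it gave 0 to 2 in control neurons, 5 to 6 in TM-treated neurons, 6 to 10 in control and 4 to 7 in TM-treated astrocytes. For genotype by TM it gave 4 to 5 in neurons and 6 to 7 in astrocytes, and for cell type by TM 1 to 6 in WT and 0 to 3 in KO. It gave 1 to 1 for both differences together and 10 to 10 between WT control neurons and astrocytes. The block was not run for WT control neurons against astrocytes, because it is set within a cell type and each library would be its own block. Signs turned only for values that had not passed: Vcam1 with TM in WT neurons (0.05) to -0.19 with the GC offset and -0.16 with block and GC offset; Relb with TM in WT astrocytes (-0.04) to 0.13, 0.11 and, without replicate 1, 0.02; Rela in KO against WT control neurons (0.02) to -0.00 without a filter; Vcam1 there (0.19) to -0.57 with the GC offset and -0.55 with block and GC offset, where it passed (adjusted p = 0.000451); Nfkbie in KO against WT astrocytes under TM (0.14) to -0.01 with the GC offset; and, in the genotype by TM difference of neurons, Nfkb1 (-0.02) to 0.04 with DESeq2 or its size factors and 0.16 with the GC offset or block and GC offset, Rela (-0.05) to 0.02 and Relb (-0.07) to 0.00 with DESeq2 or its size factors. With single libraries left out these ran from -0.09 to 0.11 (Vcam1, TM in WT neurons), -0.21 to 0.17 (Relb, TM in WT astrocytes), -0.05 to 0.12 (Rela, control neurons), -0.13 to 0.20 (Tnfaip3, control neurons), -0.19 to 0.04 (Nfkb2) and -0.04 to 0.15 (Rela) in KO against WT neurons under TM, -0.12 to 0.54 (Nfkbia) and -0.17 to 0.35 (Nfkbie) in the same for astrocytes, and in the genotype by TM difference -0.13 to 0.10 (Nfkb1), -0.16 to 0.07 (Rela), -0.19 to 0.06 (Relb) and -0.05 to 0.53 (Birc3) in neurons and -0.45 to 0.06 (Nfkb1) and -0.36 to 0.06 (Rela) in astrocytes. Over all genes, called counts moved most for KO against WT control astrocytes, 2260 against 5730 with the block and 50 without WT control replicate 2. The split of called genes moved with the GC offset to 980 positive and 1021 negative, against 1108 and 767, for cell type by TM in KO, and to 604 and 585, against 332 and 546, for both differences together. The cause of these moves was not tested.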
